A study of Mus musculus with 6 samples.

Results

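The 8 genes described here are the GATA transcription factors Gata1 to Gata6 and their FOG cofactors Zfpm1 (FOG-1) and Zfpm2 (FOG-2). They were chosen by name, 8 of 21887 protein-coding RefSeq genes, and each was examined over its gene body with 50 kb on each side, called its window below. The measurement was CUT&RUN for H3K27ac, the acetylation of histone H3 at lysine 27 found at promoters and enhancers in use. In this method a nuclease tethered to an antibody releases the marked chromatin for sequencing. The nuclei were sorted from left ventricle with an antibody to PCM-1, which marks cardiomyocyte nuclei, and came from FVB mice aged 8 to 12 weeks. Of the 6 libraries, 3 came from wild type mice (WT) and 3 from mice labelled HOM, in which the natriuretic peptide genes Nppa and Nppb were deleted with CRISPR. Both groups were sorted in the same way. The labels also list Myh6-MerCreMer, nTnG and Sun1/sfGFP lines bred on FVB/N, without saying whether any mouse used here carried them. Peaks had been called in every library by itself, and all values below come from those lists. Whether the libraries of a group are from separate mice is not stated, so a p-value here speaks only of the spread among these libraries, which may be technical. In sorted bulk nuclei, fewer nuclei carrying the mark and less of the mark per nucleus cannot be told apart.

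GATA proteins bind DNA at the sequence that names them through zinc fingers, and FOG proteins do not bind DNA themselves but attach to a zinc finger of the GATA factor and can either repress or help it. Gata4, Gata5 and Gata6 are the factors of heart and endoderm: Gata4 and Gata6 act in cardiac progenitors and in adult cardiomyocytes, and Gata5 is best known from the endocardium and cardiac cushions. Gata1 drives red cell and platelet formation, Gata2 acts in blood stem cells and endothelium, and Gata3 in T cells and several epithelia. Zfpm1 is the partner of Gata1 in blood, and Zfpm2 is the partner of Gata4 in heart and coronary development.

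The lists were of very unequal length. In replicates 1, 2 and 3, the order used for all values below, there were 21340, 72362 and 106605 peaks for WT, and for HOM 48102, 1462 and 15184, so HOM replicate 2 stands apart and a missing peak there says little. The Y chromosome carried 149 peaks in WT replicate 1, 156 in HOM replicate 1 and 18 to 44 in the other 4 libraries. Depth is unknown, as read counts are not part of the lists. The cell label was checked at the ends of marker genes, within 1 kb. Of 8 cardiomyocyte markers such as Myh6 and Tnnt2, 7, 8 and 8 were marked there in WT, with 8, 0 and 7 in HOM, beside 11.5%, 31.8% and 42.2% of all genes in WT and 22.7%, 0.379% and 7.99% in HOM. None of 6 endothelial, 6 fibroblast and 5 T cell markers had one there in any library. Whole windows also hold neighbouring genes: those of 3, 4 and 4 T cell markers held a peak in WT, with 4, 0 and 3 in HOM, and their median covered share in WT replicates 2 and 3 and HOM replicate 1, 1.89%, 3.94% and 0.862%, was above that of all genes (0.605%, 1.39% and 0.215%). Of 4 endocardial markers 1 had a peak at an end in WT replicates 2 and 3, and of 5 mural markers 1 in all libraries but HOM replicate 2. The median share of endocardial windows was also above that of all genes, at 0.139%, 1.04% and 1.75% in WT and 0.298% in HOM replicate 1. That of mural windows was above it in WT replicates 2 and 3 and HOM replicate 1, at 0.726%, 3.89% and 0.479%. Endothelial and fibroblast medians were not above it in any library. Of 6 blood and mast cell markers 1 had a peak at an end, in WT replicates 2 and 3 and HOM replicate 1. The covered shares of the whole windows of these 6 markers added up to 0.515% to 8.39% in WT and 0% to 2.63% in HOM. This is a sum of 6 shares and not the share of the joined windows. Ptprc, Cpa3, Mcpt4 and Hbb-b1 were at 0 in all libraries, and the median of the 6 was 0% in each. Most of the sum came from the window of the macrophage gene Cd68, at 0.515%, 4.61% and 7.79% for WT and 2.35%, 0% and 0.804% for HOM, and Csf1r had peaks in 3 libraries. Their part in the results was not tested.

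None of Gata1, Gata2 and Gata3 had a peak anywhere in its window in any of the 6 libraries, whereas Gata4 had peaks in 6 libraries and Gata5, Gata6, Zfpm1 and Zfpm2 each in 5, all but HOM replicate 2. A window with at least 1 peak occurred at 43.9%, 68.4% and 75.1% of genes in WT and at 58.8%, 4.97% and 36.1% in HOM. A peak in all libraries but HOM replicate 2 occurred at 31.4% of genes, and one in all 6 at 4.34%. The windows span 117, 113 and 131 kb. Gata1 lies at positions 7959260 to 7976663 of chromosome X, Gata2 at 88193891 to 88207032 of chromosome 6 and Gata3 at 9857078 to 9887953 of chromosome 2 (mm10, as all positions here). An empty window was not rare, since 23.7% of all 21887 windows, and 49.1% of 966 windows on the X chromosome, had no peak in any library. The ranges also hold other genes, among them the deacetylase gene Hdac6 beside Gata1, Dnajb8 beside Gata2 and part of Taf3, a gene of a general transcription factor subunit, beside Gata3, and these had no peak inside the windows either. In the list with most peaks, WT replicate 3, the next peak lay 10 kb below the Gata1 window, 10.4 kb above the Gata2 window and 23.2 kb above the Gata3 window.

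Promoter sequences are shown for the members whose start is in the RefSeq promoter table (GRCm38.p6). The sequences show how promoter stretches that no called peak touched differ in CpG content. Each runs 5′ to 3′ on the gene's strand from 250 bases before to 50 after the start, with CG dinucleotides in capitals. They are Gata1 (chrX:7967861-7968160, minus strand), Gata2 at its lower start (chr6:88193641-88193940, plus strand), Gata3 (chr2:9878551-9878850, minus strand), Gata5 (chr2:180334630-180334929, minus strand) and Zfpm1 (chr8:122281891-122282190, plus strand). Those of Gata1, Gata3, Gata5 and Zfpm1 lie inside the RefSeq gene bodies, whose 5′ ends are at 7976663, 9887953, 180335503 and 122281856. They are therefore not at the outermost start of the gene.
Gata1: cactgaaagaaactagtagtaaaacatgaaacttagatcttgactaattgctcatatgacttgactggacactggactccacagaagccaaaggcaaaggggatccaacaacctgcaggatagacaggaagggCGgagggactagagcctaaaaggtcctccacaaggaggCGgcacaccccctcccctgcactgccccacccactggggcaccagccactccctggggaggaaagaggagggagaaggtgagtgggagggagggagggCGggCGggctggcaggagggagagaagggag
Gata2: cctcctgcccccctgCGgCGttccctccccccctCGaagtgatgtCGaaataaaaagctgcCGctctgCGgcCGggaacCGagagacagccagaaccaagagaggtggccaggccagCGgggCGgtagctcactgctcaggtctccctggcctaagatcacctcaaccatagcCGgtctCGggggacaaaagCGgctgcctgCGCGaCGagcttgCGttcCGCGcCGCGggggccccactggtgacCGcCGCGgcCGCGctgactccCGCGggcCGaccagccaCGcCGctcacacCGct
Gata3: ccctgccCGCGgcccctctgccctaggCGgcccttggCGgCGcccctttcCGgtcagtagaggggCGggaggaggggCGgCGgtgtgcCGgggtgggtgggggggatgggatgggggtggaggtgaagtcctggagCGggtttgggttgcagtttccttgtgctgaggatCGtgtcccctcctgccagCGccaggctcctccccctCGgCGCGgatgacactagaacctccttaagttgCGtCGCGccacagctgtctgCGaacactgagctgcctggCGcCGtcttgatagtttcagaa
Gata5: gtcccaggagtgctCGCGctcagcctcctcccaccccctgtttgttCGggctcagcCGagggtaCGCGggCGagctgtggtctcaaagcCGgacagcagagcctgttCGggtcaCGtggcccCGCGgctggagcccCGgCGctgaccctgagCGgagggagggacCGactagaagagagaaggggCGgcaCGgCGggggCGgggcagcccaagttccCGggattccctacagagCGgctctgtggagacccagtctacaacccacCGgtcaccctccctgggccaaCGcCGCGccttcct
Zfpm1: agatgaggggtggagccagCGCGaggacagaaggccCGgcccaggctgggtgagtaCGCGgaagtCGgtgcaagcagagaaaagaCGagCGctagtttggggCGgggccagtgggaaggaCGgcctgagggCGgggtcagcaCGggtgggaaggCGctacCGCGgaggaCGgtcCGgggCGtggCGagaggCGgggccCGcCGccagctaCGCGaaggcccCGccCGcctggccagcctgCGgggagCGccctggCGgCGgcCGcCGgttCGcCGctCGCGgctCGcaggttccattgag
The Gata1 promoter holds 4 CG dinucleotides, and those of Gata2, Gata3, Gata5 and Zfpm1 hold 32, 22, 26 and 37, beside a median of 7 over 32851 promoters. No peak of any library touched any of these 300 base stretches. Beside that of Zfpm1, however, the nearest peak lay 109, 134 and 58 bp away in WT and 83 bp away in HOM replicate 1. Among the 7588 promoters with at least 22 CG dinucleotides a peak touched 4.32%, 24.3% and 47.6% in WT, and 13.7%, 0.0791% and 3.15% in HOM. The letters GATAA or the same ending in G, with A or T before them, on either strand, occurred in 29.8% of all promoters. Of those printed they occurred once, in Gata3.

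Gata4 was the member most widely covered by peaks in every library. Its gene body spans positions 63198914 to 63271712 of chromosome 14, and peaks covered 10.1%, 29.8% and 40.4% of its window in WT. In HOM they covered 22.1%, 0.0764% and 6.87%. The mean over all protein-coding windows was 0.403%, 2% and 3.59% in WT, against 1.08%, 0.00794% and 0.276% in HOM. Among 21887 windows Gata4 ranked 29, 13 and 20 in WT and 11, 327 and 36 in HOM. The window held 49, 64 and 61 peaks in WT and 66, 2 and 36 in HOM, and 203 of these 278 peaks (73%) lay on the gene itself. Peak number and covered length ordered the libraries differently: WT replicate 3 had fewer peaks than HOM replicate 1 but its widest peak reached 10426 bp, against 2786 bp.

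The cardiac factor Gata6 followed at a distance. It spans positions 11052510 to 11085636 of chromosome 18, and peaks covered 3.89%, 16.6% and 25.9% of its window in WT and 10.2%, 0% and 2.24% in HOM. It ranked 263, 185 and 167 in WT, against 200 and 477 in HOM replicates 1 and 3. Peak numbers were 13, 42 and 39 in WT and 32, 0 and 8 in HOM. By covered share WT replicate 3 was highest and HOM replicate 2 lowest for both genes, as they were in list length, and the groups overlapped. By peak number HOM replicate 1 was highest at Gata4 and WT replicate 2 at Gata6. Gata4 lay above Gata6 in all 6 libraries.

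Gata5 did not share this pattern. It spans positions 180325088 to 180335503 of chromosome 2, and none of the 21 peaks found in its window over the 6 libraries lay on the gene. Covered shares were 0.177%, 1.03% and 3.9% in WT and 1.44%, 0% and 0.325% in HOM. The one region called in 5 libraries, from 180384296 to 180385418, lay 48.8 kb above the gene, in the lncRNA gene B230312C02Rik at the edge of the window. The promoter shown above was 49.7, 27.4 and 16.6 kb from the nearest peak in WT and 24.1, 120 and 49.6 kb in HOM. Compared with all windows, Gata5 ranked 7871, 9053 and 6535 in WT, against 4870 and 4547 in HOM replicates 1 and 3.

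**Figure D1:**
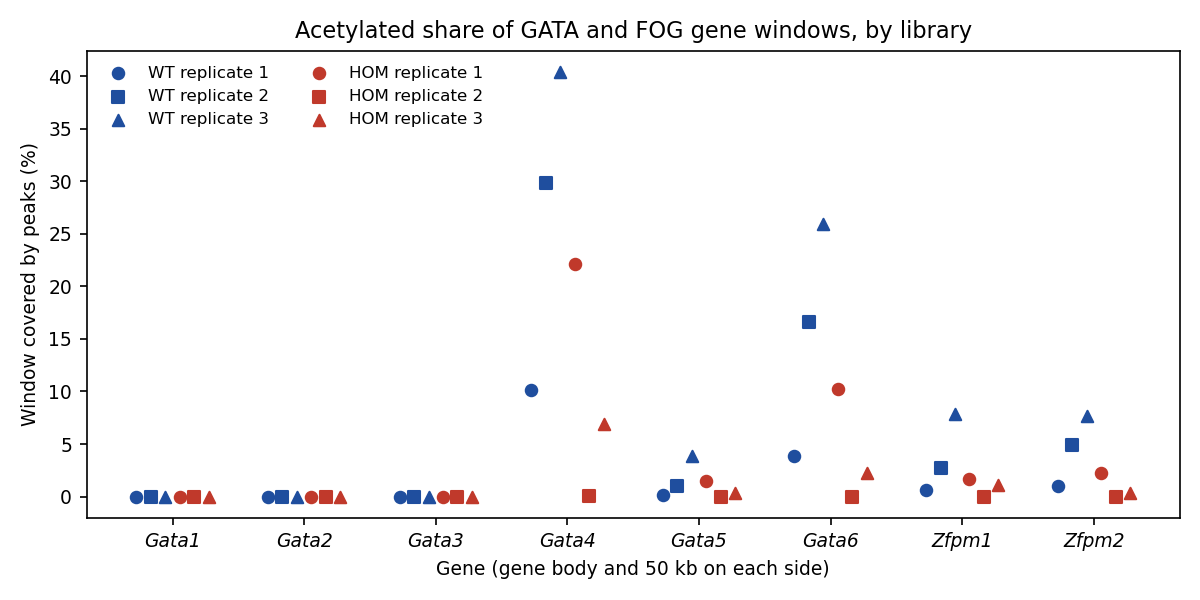
Share of each gene window (gene body and 50 kb on each side) covered by peaks, in percent, with one point per library, WT in blue and HOM in red. Gata4 reaches 40.4% in WT replicate 3 and lies above the other genes in all libraries, and Gata1, Gata2 and Gata3 lie at 0 throughout.

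Set against each other, the mean covered share of Gata4, Gata5 and Gata6 was 4.73%, 15.8% and 23.4% in WT, against 11.2%, 0.0255% and 3.14% in HOM, while that of Gata1, Gata2 and Gata3 was 0 in all 6. In WT the difference was 14.6 ± 9.39 percentage points, and in HOM it was 4.8 ± 5.79 (SD, n = 3 each). Each cardiac gene was above each of the other 3 in 9 of 9 pairs in every library but HOM replicate 2, where Gata4 alone had a peak. When HOM replicate 2 was dropped and the 5 remaining lists were shortened to 15184 peaks, the 9 pairs kept this order except in HOM replicate 1, where Gata5 had no peak left. Since Gata1, Gata2 and Gata3 were at 0, any peak in a window decided a pair. For Gata5 these peaks all lay in the flanks, as 0 of 21 were on the gene. No test was made of the cardiac minus other difference, since the genes were named with results of these data known.

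Joined over gaps of up to 10 kb, the Gata4 peaks formed one of the longer domains of each library. Its longest domain extended 36.8, 80.4 and 95.3 kb in WT and 77.9, 9.64 and 20.3 kb in HOM. It lay within the first 0.81%, 0.395% and 0.574% of domains by extent in WT, and 0.25%, 3.97% and 2.87% in HOM. In HOM replicate 2 it was only 2 narrow peaks joined over a gap, which covered 1.37% of its extent. The Gata4 domain of the other libraries was covered to between 21.6% and 61.1%. This domain contained the whole gene in WT replicates 2 and 3 and in HOM replicate 1, and in the other 3 libraries it lay over the upper or middle part of the gene. The Gata6 domain extended 24.1, 54.6 and 56.6 kb in WT and 28.4, 0 and 7.64 kb in HOM, and contained the whole gene in WT replicates 2 and 3. The longest domains that reached into the Gata5 window extended 9.55, 14.1 and 16.3 kb in WT and 13.8, 0 and 9.81 kb in HOM but began at the lncRNA gene and ran away from Gata5, touching no base of it. Shorter groups lay nearer to the gene in some libraries, among them one of WT replicate 3 that ended 7.03 kb below it.

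**Figure D2:**
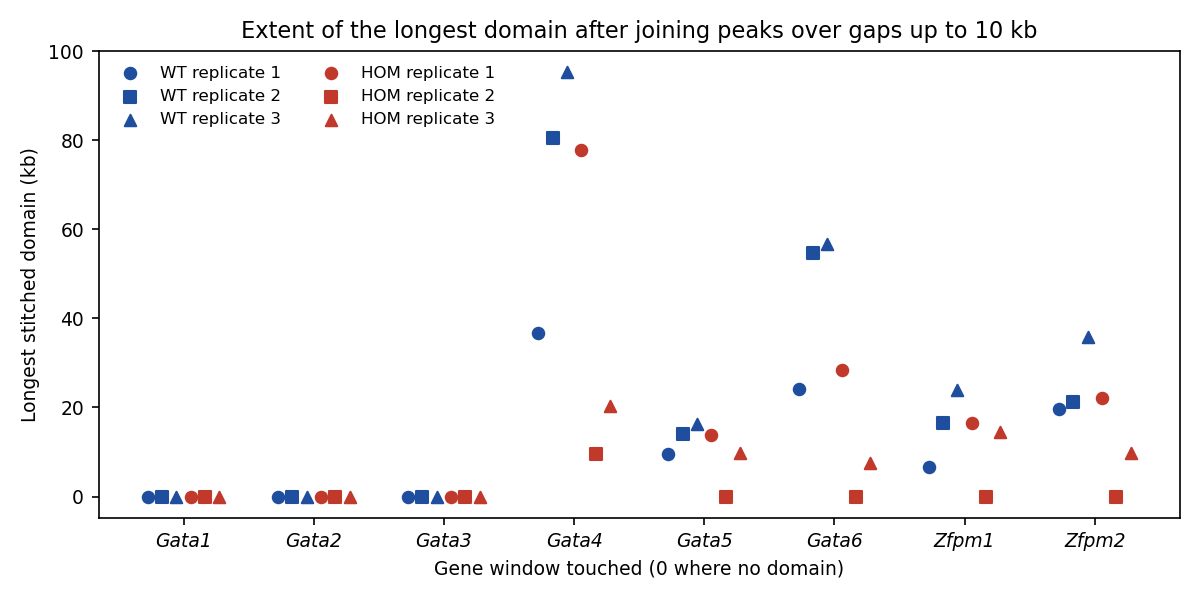
Extent in kb of the longest domain (peaks joined over gaps of up to 10 kb) that overlaps each gene window, one point per library, WT in blue and HOM in red. Gata4 domains reach 95.3 kb in WT replicate 3 and 77.9 kb in HOM replicate 1.

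Within the Gata4 window the peaks fell into 3 groups separated by more than 10 kb. The main one ran from 20.7 kb below the gene to 74.7 kb past its lower end and held 39, 50 and 49 peaks in WT and 55, 2 and 31 in HOM. The group below it lay on Fdft1, the gene of squalene synthase, and Fdft1 carried 2, 8 and 6 of the window's peaks in WT and 2, 0 and 1 in HOM. The group above it lay at the transcript Gm4151, with 8, 7 and 7 peaks in WT and 9, 0 and 4 in HOM. When touching peaks of all libraries were merged, the window held 60 regions, of which 9 were called in at least 5 libraries. Both regions called in all 6 libraries lay inside Gata4, and the one of higher mean fold rank ran from 63245383 to 63253081. HOM replicate 2 had a peak of 75 bp in that region and one of 57 bp in the other, from 63231638 to 63242063. The 57 bp peak was overlapped in WT replicates 2 and 3 alone, and the 75 bp peak in all WT libraries and HOM replicate 1. No single base of the window was covered in all 6 libraries.

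**Figure D3:**
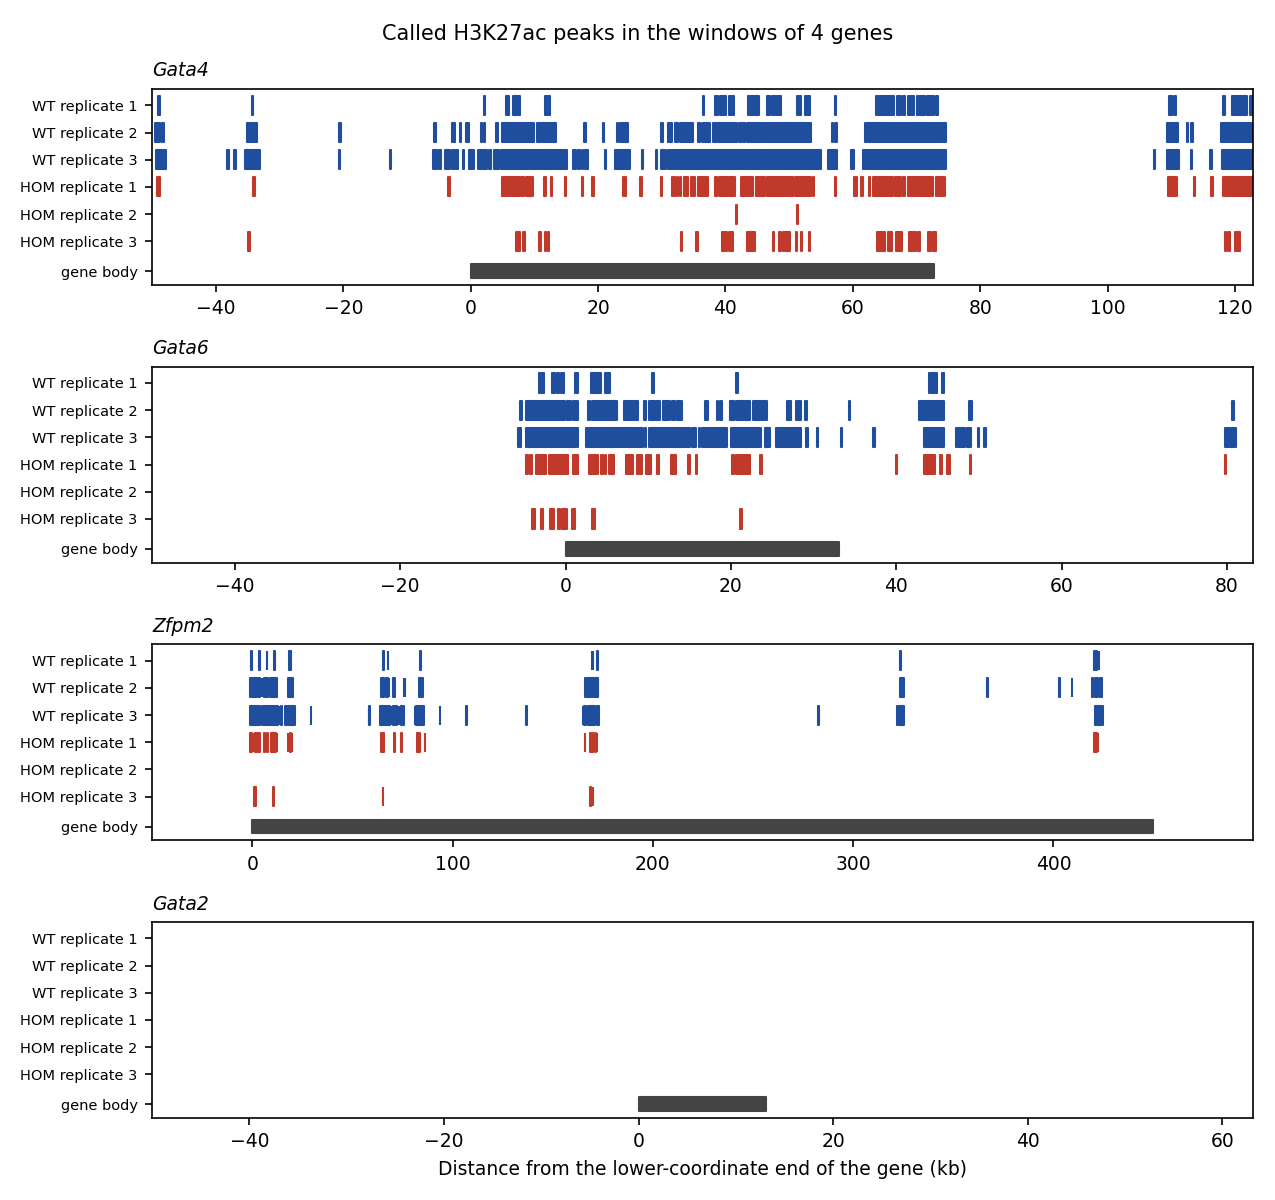
Peaks of the 6 libraries along the windows of Gata4, Gata6, Zfpm2 and Gata2, as distance in kb from the lower-coordinate end of each gene, one line per library, WT in blue and HOM in red, with the gene body as a grey bar. Peaks lie over much of Gata4 and Gata6 and in separate groups along Zfpm2, and the Gata2 window holds 0 peaks.

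At Gata6 3 regions were called in 5 libraries, and the one of highest mean fold rank, from 11047670 to 11054057, spanned the lower end of the gene and the transcript Gata6os. The deposited fold there reached 13.4 in WT replicate 3. Gata6os carried 5, 2 and 2 peaks in WT and 8, 0 and 5 in HOM. Of 134 peaks in the window over the 6 libraries, 87 (64.9%) lay on Gata6.

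Peaks were ranked within each list by the fold enrichment that the authors' peak caller gave. A rank is the percent of peaks of the list with a fold as low or lower, ties included. The highest peak of the Gata4 window stood at 98.7%, 99.7% and 99.5% in WT and at 99.1%, 47.5% and 97.4% in HOM. The highest peak of the Gata6 window stood at 97.7%, 98.4% and 98.8% in WT and at 98.2% and 90.3% in HOM replicates 1 and 3. For Gata5 these ranks were 64.8%, 86.1% and 93.6% in WT, against 54.9% and 52.4% in HOM replicates 1 and 3. The median over all windows with a peak was 78.2%, 86.1% and 91.1% in WT, against 83.9%, 35.1% and 82.9% in HOM. A highest peak is drawn from many peaks at Gata4 and from few at Gata5, so these ranks partly restate the peak numbers. Nor did these peaks all centre on the named gene. In WT replicate 3 that of the Gata4 window centred on Gm4151, 47.4 kb above Gata4. Those of the Gata6 window centred on Gata6os, below the gene, except in WT replicate 2. All those of the Gata5 window centred on B230312C02Rik. The median Gata4 peak stood at 64.8%, 71.4% and 63.6% in WT and 72.6%, 41.3% and 70.8% in HOM. The median Gata6 peak stood at 78.2%, 63.1% and 54.4% in WT, with 54.9% and 70.8% in HOM replicates 1 and 3. For the median peak of a window, the median over all genes was 55.3%, 52.1% and 54.4% in WT, with 54.9%, 35.1% and 52.4% in HOM. Gata4 was above it in all 6 libraries, and Gata6 equalled it in WT replicate 3 and HOM replicate 1.

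The cofactor genes differed from each other. Zfpm2, which covers 449551 bp of chromosome 15 from position 40655042 to 41104592, held 17, 45 and 52 peaks in its window in WT and 35, 0 and 6 in HOM, and 149 of these 155 peaks (96.1%) lay on the gene. The covered share of this long window was 0.966%, 4.95% and 7.71% in WT, against 2.2%, 0% and 0.378% in HOM. All WT values were above those of HOM replicates 2 and 3, while HOM replicate 1 was above WT replicate 1. The highest peak stood at 97.7%, 98.4% and 99.4% of its list in WT and at 98.2% and 90.3% in HOM replicates 1 and 3. The peaks were not spread evenly. The group at the lower end, from 1.13 kb below the gene to 29.4 kb into it, held 6, 15 and 14 peaks in WT, against 18, 0 and 2 in HOM. The longest domain of the window extended 19.6, 21.2 and 35.8 kb in WT, against 22.1, 0 and 9.85 kb in HOM. It lay at the lower end of the gene except in WT replicate 3 and HOM replicate 1, where it belonged to a group 58 to 93.8 kb past that end.

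Zfpm1, at positions 122281856 to 122337862 of chromosome 8, held 3, 12 and 31 peaks in WT and 9, 0 and 7 in HOM, and 16 of these 62 (25.8%) lay on the gene. Its window was covered to 0.605%, 2.76% and 7.83% in WT and 1.64%, 0% and 1.07% in HOM. More of the peaks lay on the neighbouring zinc finger gene Zfp469, with 2, 8 and 19 in WT, against 6, 0 and 3 in HOM, and both regions called in 5 libraries lay there, 42.1 and 35.2 kb below Zfpm1. At the promoter printed above, the nearest peak lay 109, 134 and 58 bp away in WT, and 83 bp, 142 kb and 788 bp away in HOM. The longest domain of its window, 6.63, 16.5 and 23.9 kb in WT and 16.6, 0 and 14.4 kb in HOM, did not overlap the gene.

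The genotypes were compared on the length covered in a window per Mb covered by the whole list, since the lists differ in length. On this measure HOM had the lower mean at 14768 of 16710 genes and the higher at 11.6%, so HOM below WT was the common direction. HOM replicate 2, with a peak in 4.97% of all windows, entered most of these HOM means as 0, which scaling cannot change. In WT, whose lists grew from replicate 1 to 3, the scaled values fell at Gata4 and Gata6 and rose at Gata5. Those of Zfpm1 and Zfpm2 followed neither order. With 3 libraries against 3 the two-sided exact permutation test cannot go below 0.1. For Gata4 the WT values were 2616, 1629 and 1253 bp per Mb, and the HOM values 2219, 446 and 2614. The groups overlapped, and the means were 1833 ± 704 and 1760 ± 1154 (SD, n = 3 each; exact permutation p = 0.9). For Gata6 the values were 773, 697 and 620 in WT and 789, 0 and 655 in HOM. HOM replicate 2 was lowest and the other HOM libraries lay among or above WT, with means of 697 ± 76.7 and 482 ± 422 (SD, n = 3 each; exact permutation p = 0.7). Gata5 had 29.1, 36.1 and 77.3 in WT and 92.3, 0 and 79 in HOM. HOM replicates 1 and 3 were above WT and HOM replicate 2 below it (exact permutation p = 0.8, n = 3 each). Zfpm1 had 141, 136 and 219 in WT and 149, 0 and 367 in HOM. The HOM values surrounded those of WT (exact permutation p = 0.8, n = 3 each). For these 4 genes the difference was smaller than the SD of the HOM libraries.

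Zfpm2 was the one member whose groups did not overlap. Its WT values were 793, 861 and 761 bp per Mb, and its HOM values 704, 0 and 457. All HOM libraries were below all WT libraries, with means of 805 ± 50.9 and 387 ± 357 and a difference of -418 (SD, n = 3 each; exact permutation p = 0.1, the smallest the design allows; 0.77 after Benjamini-Hochberg adjustment over 16710 genes). HOM libraries lay below WT without overlap at 10.5% of the 16710 genes and above at 0.317%, against which 1 of the 5 members with peaks did so. HOM cannot lie above where HOM replicate 2 is at 0, as at most genes and at Zfpm2, so these 2 shares are not comparable. No gene had an unadjusted p under 0.05, which the design does not permit. Without HOM replicate 2, the difference was -224 and Gata5 also did not overlap, with HOM above. Then 11% of genes lay below and 5.16% above. With the 5 lists at equal length these shares were 9.11% and 7.29%, and the groups did not overlap at Zfpm2 and Gata6, both with HOM below. The Gata6 groups nearly met, at 892 bp per Mb in WT replicate 3 and 891 in HOM replicate 1. The Zfpm2 difference was -88.5 between WT replicate 1 and HOM replicate 1, the libraries with more Y chromosome peaks, and -582 among the other 4. The Zfpm2 groups overlapped at a −log10 q of at least 5 (-279), with the 50% stronger peaks (-379), with all lists at the length of the shortest (-414), without scaling (-20225 bp) and per 1000 peaks (-211 bp). With the 50% stronger peaks Gata5 was the member without overlap, with HOM below.

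**Figure D4:**
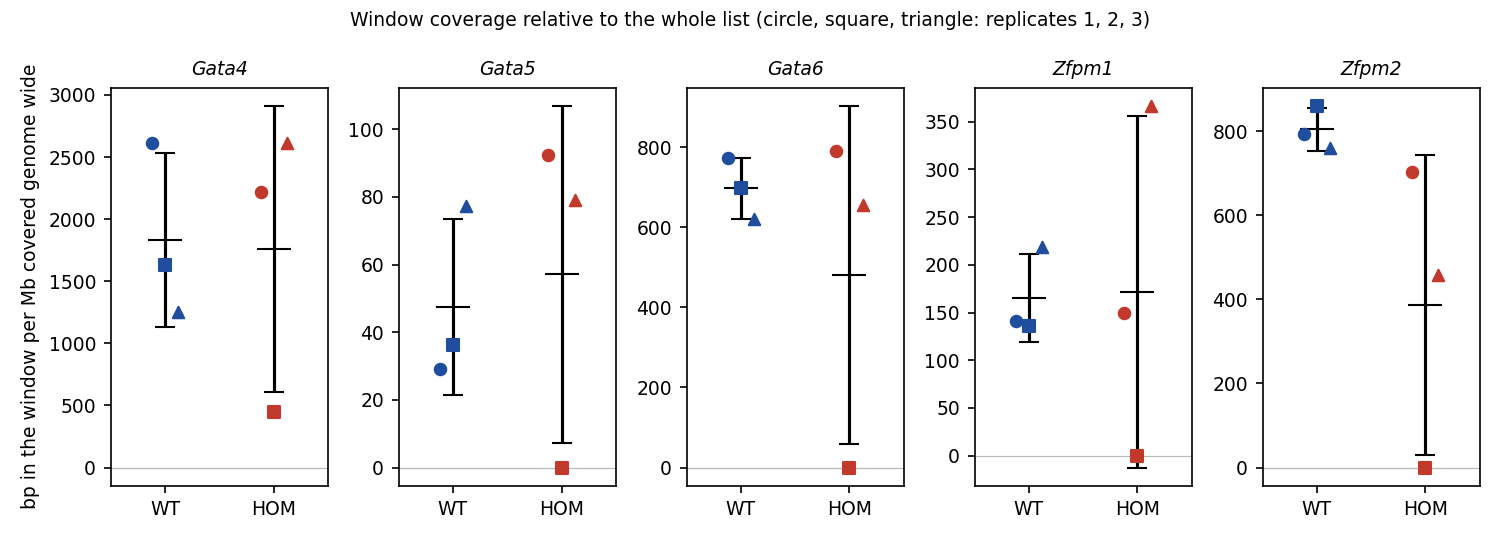
Length covered in each gene window per Mb covered by the library's whole list, in bp per Mb, with WT in blue and HOM in red, a point per library, and bars for the mean and SD (n = 3 each). Each gene has its own axis. The Zfpm2 HOM libraries, at 704, 0 and 457, lie below the WT libraries at 793, 861 and 761, and the groups overlap at Gata4, Gata5, Gata6 and Zfpm1.

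Of 200 merged regions in the windows, 3 were found in every WT library while absent from HOM, and 0 in the reverse. Over the genome 1.03% of 114976 regions did the former and 0.00174% the latter. The reverse needs a peak in HOM replicate 2, whose list holds 1462 peaks, so it could hardly occur. The 2 directions can therefore not be set against each other. Of the 3 regions found in WT alone, 1 was in Gata4, from 63200995 to 63201316, and 2 in Zfpm2, from 40721532 to 40723808 and from 40978121 to 40980357. The last belongs to a group of peaks 322 to 325 kb past the lower end of the gene that covered 594, 1571 and 2262 bp in WT and 0 bp in all HOM libraries.

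The windows of genes that work with or under GATA factors were described for context. Of 18 cardiac partner genes, 14, 15 and 16 windows held a peak in WT, against 15, 4 and 13 in HOM. Of 18 cardiac target genes, 16, 18 and 18 did in WT and 18, 5 and 14 in HOM. Of 16 blood partner and target genes, 6, 12 and 12 did in WT and 9, 0 and 6 in HOM. Among all genes 43.9%, 68.4% and 75.1% did in WT, with 58.8%, 4.97% and 36.1% in HOM, and outside HOM replicate 2 the blood genes were near those shares. The median covered share of the targets was 0.897%, 4.84% and 11.4% in WT, against 2.62%, 0% and 0.708% in HOM, beside 0%, 0.605% and 1.39% in WT, against 0.215%, 0% and 0% in HOM over all genes. The median of the blood genes was 0%, 0.595% and 1.04% in WT, against 0.111%, 0% and 0% in HOM, at or below that of all genes in each library. Among the partners Hand2, Nkx2-5 and Mef2d, cardiac transcription factors, had mean covered shares of 15%, 12.6% and 10.8% over the 6 libraries, and Isl1, Hand1 and Nfatc4 had 0%, 0% and 0.0679%. Isl1 and Hand1 are best known from the embryonic heart. Among the targets Atp2a2, the calcium pump of the sarcoplasmic reticulum, had 12%, Chrm2, the muscarinic receptor of the heart, 11.7% and cardiac actin Actc1 5.57%, and the lowest were Hamp, Cdk4 and Bcl2 at 0.575%, 0.577% and 0.868%. In the blood list Gp1ba, Spi1 and Itga2b had 4.83%, 2.51% and 2.44%, and the stem and mast cell receptor Kit, the platelet chemokine Pf4 and the blood factor Tal1 had 0%. For comparison, Gata4 had a mean of 18.2% and Gata6 of 9.81%.

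**Figure D5:**
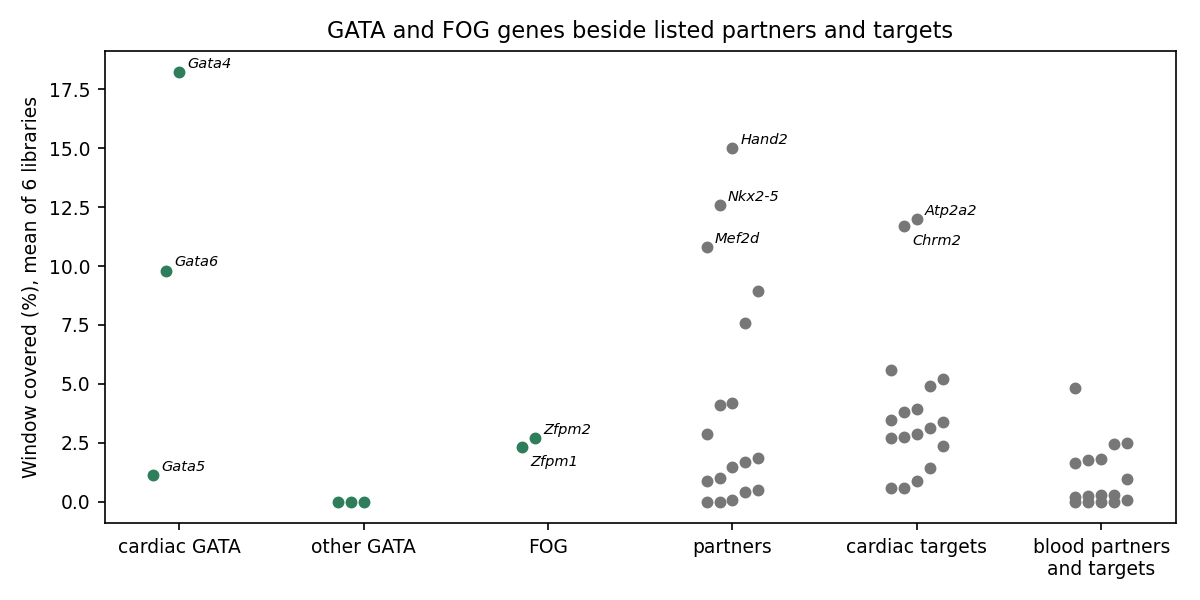
Mean share of the gene window covered by peaks over the 6 libraries, in percent, for the 8 GATA and FOG genes and for lists of cardiac partners, cardiac targets and blood genes, one point per gene. Gata4 at 18.2% lies above every gene of the lists, and Kit, Pf4 and Tal1 lie at 0%.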

How the data were processed

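H3K27ac CUT&RUN peak lists of 6 libraries, 3 per genotype, were analysed, 1 list per library, grouped by the sample titles. BWA and MACS2 with mm10 are named in the submitters' processing notes, their versions being not given in the sources used here. Each deposited list gives per peak a score, a fold enrichment, a −log10 p-value and a −log10 q-value, all from the authors' peak caller. Fold served to rank peaks within a list and −log10 q as a filter in an alternative, and the score was not needed. The lists hold no counts, so no interval for depth can be given.

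Gene bodies and promoters came from RefSeq tables of GRCm38.p6, the assembly behind mm10, and 8 of 8 members matched. The promoter table was matched for Gata1, Gata2, Gata3, Gata5 and Zfpm1, and Gata4, Gata6 and Zfpm2 were named only. Peaks of a library were united, covered lengths taken per window, and peaks joined over gaps of up to 10 kb. Genotypes were compared for each gene with a two-sided exact permutation test over 20 assignments, with Benjamini-Hochberg adjustment over the 16710 genes with a peak. Alternatives covered flank, stitching, list length, q, scaling, the replicate number as a block, each library left out and, added after the data were seen, a split by Y chromosome peaks.

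Members and gene lists were chosen with earlier results of these data known. Named beside the members were genes in their windows, the 3 highest and 3 lowest of each list by mean covered share, the 3 genes most like Gata4 and Gata6 in covered share, and per member the region called in most libraries, ties by mean fold rank. Coverage and counting were tested on simulated data. Computation, with the tests, used pandas 2.3.3 and numpy 2.4.6 under Python 3.11.15, and plots used matplotlib 3.10.9.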

Additional observations from a re-analysis of the deposited data

How the results depend on the processing

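Of the values recomputed under the alternatives, 26 changed sign and 21 others moved by more than the spread between replicates or, for counts, by over 1.5 times. The sign of the HOM minus WT differences, in bp per Mb covered, changed for 4 of 5 members. For Gata4 (-72.8) the difference was -3205 with lists cut to the shortest, 40.7 with a flank of 20 kb, 71.5 on the gene body, 510 with 5 lists at equal length, 23.6 at a −log10 q of at least 5 and 88.8 in the 4 libraries with few Y chromosome peaks. For Gata5 (9.6) it was -6.07 and -114 with flanks of 20 and 100 kb, -55.3 with the 50% stronger peaks, -8.19 with 5 equal lists, -43.4 at that q, -1231 bp unscaled, -2.88 bp per 1000 peaks and -17.2 in those 4 libraries. For Zfpm1 (6.41) it was -53.8, -141, -4411 bp and -18.4 with the stronger peaks, that q, no scaling and per 1000 peaks. For Gata6 (-215) it was 16.1 between the libraries with more Y chromosome peaks. With each library left out, the differences ran from -500 to 584 for Gata4, -8 to 38.2 for Gata5, -369 to 25.8 for Gata6, -91.1 to 92.4 for Zfpm1 and -576 to -224 for Zfpm2. The count of members without overlap, 1, became 0 with lists cut to the shortest, at that q, unscaled and per 1000 peaks, 2 with 5 equal lists, and 1 to 2 with each library left out. With the stronger peaks it stayed 1, but the member was Gata5 in place of Zfpm2. The cause was not tested.

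The cardiac minus other difference in WT (14.6) was 29.7 on gene bodies and 4.03 with lists of 1462 peaks, and 10.3 to 19.6 with a library left out. In HOM (4.8) it was 0.871 with lists of 1462 peaks, and 1.58 to 7.19 with a library left out, lowest without HOM replicate 1. With lists of 1462 peaks the WT domains were 15.8 kb at Gata4, 2.56 at Gata6, 2.07 at Zfpm2 and 0 at Gata5 and Zfpm1, and HOM domains were 0 at Gata5 and Zfpm1, where fewer peaks remain by construction. With the stronger peaks the WT Gata6 domain was 23.5 kb and the HOM Gata5 domain 0. Stitching over 5 kb gave 15.8 kb at Zfpm2 in WT, and over 20 kb 127 at Gata4, 46.2 at Gata5 and 30.9 at Zfpm1.

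The replicate numbers did not pair the libraries: deviations of same-numbered libraries correlated at -0.0501, -0.0227 and -0.288, and no library correlated best with its own number. A fit with the replicate block gave the same difference at Zfpm2, -418, with a sign-flip p of 0.25, the smallest that exact test allows with 3 pairs. The unequal list lengths limit every level set across libraries.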

Other observations

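The genes whose windows were most like that of Gata4 in covered share over the 6 libraries were Cuedc1, Coro6 and Dhrs3. Their distances were 0.447, 0.449 and 0.519 on a log2 scale with 0.1 percentage points added, beside a median of 12.9 over all genes. Coro6, a coronin gene, was covered to 7.85%, 26.9% and 40.6% in WT and 21.9%, 0.0527% and 7.19% in HOM. For Gata6 they were Cpeb3, Col4a2 and Slain2, at 0.12, 0.219 and 0.223 beside a median of 10.4. Col4a2, a gene of basement membrane collagen, was covered to 3.89%, 17.4% and 28.1% in WT and 9.96%, 0% and 1.98% in HOM. All these points share the libraries and their list lengths.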
